A study of Saccharomyces cerevisiae with 6 samples.

Results

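The 5 genes GLT1, GDH1, GDH2, GDH3 and GLN1 encode the enzymes that make glutamate and glutamine in the budding yeast Saccharomyces cerevisiae, together with the enzyme that breaks glutamate down. They were taken by gene symbol, and all 5 were found, each on 1 of the 5523 spots that carry a gene symbol among 6084 spots. Transcripts were compared between the strains Y18 with AFT2 deleted (labelled aft1aft2), Y18 (labelled aft1) and CM3260 (labelled wt), all grown exponentially in a Bio101 medium and all described as minus iron. Aft1 and Aft2 are iron-responsive transcription factors, known as activators of iron uptake genes. Every strain had the same minus iron description, so the data hold no labelled contrast between iron levels. Fuller genotypes are not given in the sources.

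Yeast fixes ammonium mainly through glutamate. The NADP-dependent glutamate dehydrogenases Gdh1 and Gdh3, closely similar paralogues, join ammonium to 2-oxoglutarate, an intermediate of the tricarboxylic acid cycle. Glutamine synthetase, Gln1, adds a further ammonium to give glutamine. Glutamate synthase, Glt1, passes the amide group of glutamine to 2-oxoglutarate and so regenerates glutamate. It is the iron-dependent enzyme of the set, because it carries iron-sulfur clusters. The NAD-dependent enzyme Gdh2 works in the other direction and releases ammonium from glutamate.

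The 6 samples are 3 strain comparisons, each in experiments 1 and 2, and each holds 1 log ratio per spot from nylon membranes. The values are taken as log2, since no label names the logarithm's base. Another base would alter the fold sizes but no direction. The direction of the ratio was not stated either. Taking the strain named first in a title as the numerator is likely to be right, because titles name it first and because iron uptake genes then lie low in the mutants. The ratios were turned to mutant minus comparison strain. The uptake gene FET3, a textbook Aft1 target, then stood at -3.43 ± 0.25 in aft1 against wt. Were the order the other way round, each change below would have the opposite sign. Within each experiment the 3 log ratios of a spot added up, to within 0.01, at every spot. The comparisons therefore share their hybridisations, 2 per strain, and comparisons against wt use the same wt values. AFT1 stood at 0.03 ± 0.25 in aft1 against wt, and AFT2 stood at 0.78 ± 0.54 when aft1aft2 was set against wt. Neither passed the test, so these spots do not check the strain labels. Whether the experiments came from separate cultures is not stated, and the spread behind the p-values may be technical.

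Ratios were centred on the median of their column, so a value of 0 is the typical spot. Without centring, the median of all fitted changes would be 0.27 for aft1 against wt, 0.54 for the double mutant against wt and 0.28 for aft1aft2 against aft1, and changes are given relative to it. Errors are standard errors (SE) of a limma fit across all spots with n = 2 hybridisations per strain. The threshold was a Benjamini-Hochberg adjusted p of 0.05 over all 6084 spots. None of the 5 genes passed it in any comparison. In a fit without the experiment term, which gains a residual degree of freedom without further data, GDH1 and GDH2 passed in both mutants against wt and GDH3 passed between the mutants (limma adjusted p from 0.017 to 0.0402). Across all spots the share that passed with the experiment term was 1.46% for aft1 against wt, 4.44% for the double mutant against wt and 2.83% between the mutants. Of those spots 51 were higher and 38 lower for aft1 against wt, 44 and 226 for the double mutant against wt, and 14 and 158 between the mutants. Without centring the counts were 44 and 14, 36 and 36, and 2 and 50. The smallest adjusted p among the 15 tests of the 5 genes was 0.109. At an unadjusted limma p under 0.05 GDH1 and GDH2 made 2 of 5 genes in each mutant against wt, and GDH3 made 1 of 5 in aft1aft2 against aft1. The shares of all spots at that limit were 15.4% for aft1, 21.4% for aft1aft2 and 22.6% between the mutants. None of the 5 was at least 2-fold off in the same direction in both experiments, where 3.93%, 5.36% and 4.68% of all spots were. The smallest absolute change of any spot that passed was 1.43 on the log2 scale for aft1 against wt, 1.14 for the double mutant against wt and 1.26 between the mutants.

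**Figure D1:**
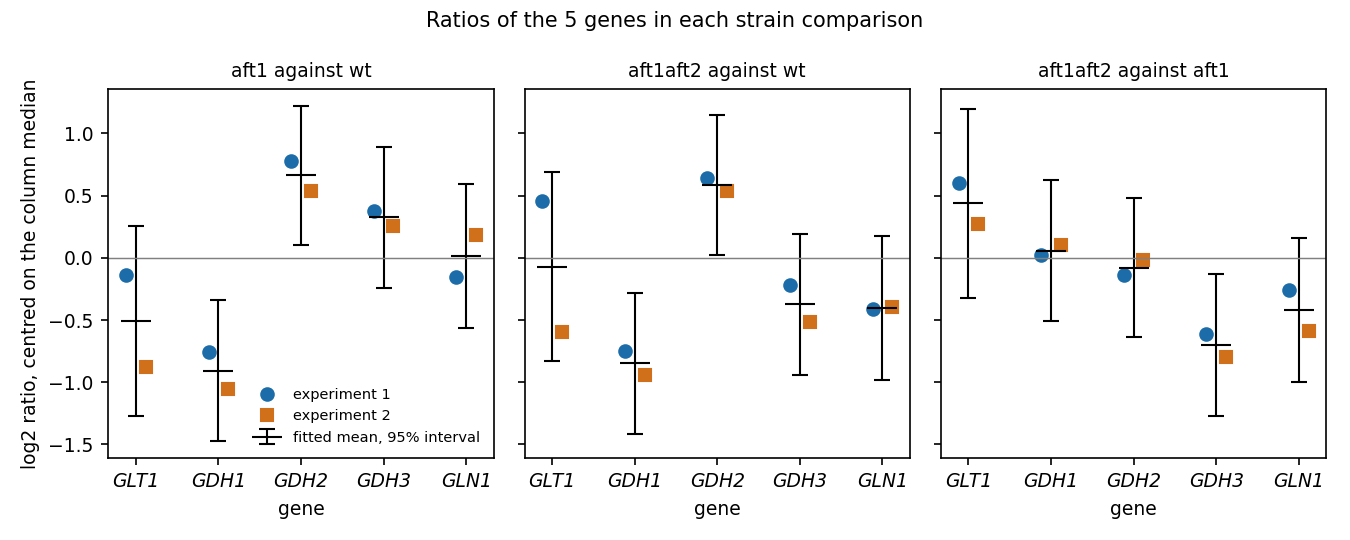
Centred log2 ratios of the 5 genes in the 3 strain comparisons, with circles for experiment 1, squares for experiment 2 and bars for the fitted mean with its 95% interval (n = 2 hybridisations per strain). GDH1 lies below 0 and GDH2 above 0 in both mutants against wt, while the GLT1 values of the experiments lie far apart.

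GDH1, the main ammonium-assimilating glutamate dehydrogenase, had the lowest ratios of the set in both mutants. In aft1 against wt its log2 ratio was -0.76 in experiment 1 and -1.05 in experiment 2. The fitted change was -0.91 ± 0.23, or 1.87-fold lower, with a 95% interval from -1.47 to -0.34. It did not pass (limma adjusted p = 0.136, unadjusted p = 0.0076). Of all spots 4.16% lay lower in this comparison.

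Set against wt, aft1aft2 had a GDH1 log2 ratio of -0.75 in experiment 1 and -0.945 in experiment 2. The fitted change was -0.85 ± 0.23, or 1.80-fold lower, with an interval from -1.41 to -0.28 (limma adjusted p = 0.109, unadjusted p = 0.0103). Here 8.47% of all spots lay lower. Without centring the GDH1 changes were -0.64 for aft1 and -0.33 for aft1aft2. Between the mutants GDH1 ratios were 0.02 and 0.10, and the fitted difference of 0.06 ± 0.23 had an interval from -0.51 to 0.63. GDH1 levels of the mutants overlapped, and both lay below both wt levels. Relative to the mean of the 3 strains, the GDH1 log2 level averaged -0.26 ± 0.03 in aft1aft2, -0.32 ± 0.09 in aft1 and 0.58 ± 0.11 in wt (SD, n = 2).

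GDH3, whose enzyme makes the same glutamate and is known mainly from growth on non-fermentable carbon sources, had values of opposite sign to its paralogue in aft1. In aft1 against wt its log2 ratio was 0.38 in experiment 1 and 0.26 in experiment 2, with a fitted change of 0.33 ± 0.23, or 0.59 without centring. The GDH3 ratios in aft1aft2 against wt were -0.22 and -0.515, and the fitted change was -0.37 ± 0.23. The signs of the centred means against wt were thus opposite in the mutants, although as deposited, without centring, aft1aft2 against wt stood at 0.14. Neither change passed (limma adjusted p = 0.564 in aft1 and 0.393 in aft1aft2).

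The direct comparison of aft1aft2 with aft1 held the lowest value of GDH3. Its log2 ratio was -0.61 in experiment 1 and -0.80 in experiment 2. The fitted change was -0.70 ± 0.23, or 1.62-fold lower, with an interval from -1.27 to -0.13 (limma adjusted p = 0.163, unadjusted p = 0.0233). Without centring it was -0.45 (limma adjusted p = 0.288, unadjusted p = 0.105). Of all spots 11.8% lay lower. The GDH3 log2 level averaged -0.36 ± 0.11 in aft1aft2, 0.34 ± 0.02 in aft1 and 0.02 ± 0.10 in wt (SD, n = 2), and the levels of the 3 strains did not overlap.

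The log2 ratio of GDH1 minus that of GDH3 was -1.14 in experiment 1 and -1.31 in experiment 2 for aft1 against wt. The same difference was -0.53 and -0.43 with aft1aft2 set against wt. The genes are similar in sequence and a membrane spot of one may read transcripts of the other. How far that applies here was not tested. The difference between the paralogues is given per experiment as a description, without a test.

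GLT1, the iron-sulfur glutamate synthase, gave the least repeatable values of the set. In aft1 against wt its log2 ratio was -0.14 in experiment 1 and -0.88 in experiment 2, with a fitted change of -0.51 ± 0.31. Without wt replicate 1 that change was -0.96 (limma adjusted p = 0.329, unadjusted p = 0.0327), without wt replicate 2 it was -0.059, and without centring it was -0.245. In aft1aft2 against wt the GLT1 ratio was 0.46 in experiment 1 and -0.595 in experiment 2, so the centred sign turned between experiments. Without centring these ratios were 0.86 and 0.03, while those of aft1 against wt were 0.17 and -0.66. The fitted change in aft1aft2 against wt was -0.07 ± 0.31, with an interval from -0.83 to 0.69, and without centring it was 0.445. Between aft1aft2 and aft1 the GLT1 ratios were 0.60 and 0.27, or 0.69 in both experiments without centring, with a fitted change of 0.44 ± 0.31. That change was 0.091 without aft1aft2 replicate 1, 0.78 without aft1aft2 replicate 2 and 0.69 without centring. None of the 3 passed (limma adjusted p = 0.491, 0.915 and 0.449 in that order).

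The residual SD of GLT1 was 0.384 on the log2 scale, and 73.7% of all spots had a smaller one. For GDH1, GDH2, GDH3 and GLN1 the residual SD lay between 0.0831 and 0.135. The GLT1 log2 level averaged 0.12 ± 0.33 in aft1aft2, -0.32 ± 0.10 in aft1 and 0.19 ± 0.42 in wt (SD, n = 2). Its aft1aft2 and wt levels overlapped widely, and its aft1 levels lay below those of both other strains.

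GDH2, which releases ammonium from glutamate, stood on the other side of 0 from GDH1. In aft1 against wt its log2 ratio was 0.78 in experiment 1 and 0.54 in experiment 2. The fitted change was 0.66 ± 0.23, or 1.58-fold higher, with an interval from 0.10 to 1.22 (limma adjusted p = 0.251, unadjusted p = 0.0273). The GDH2 ratios of aft1aft2 against wt were 0.64 and 0.535, and the fitted change was 0.59 ± 0.23, or 1.5-fold higher. Its interval ran from 0.02 to 1.15 (limma adjusted p = 0.218, unadjusted p = 0.0431). Fitted with that comparison alone, the unadjusted limma p was 0.108. Without centring the GDH2 changes were 0.925 for aft1 and 1.10 for aft1aft2 (limma adjusted p = 0.156 and 0.0714, unadjusted p = 0.0113 and 0.00538).

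Between the mutants the GDH2 log2 ratios were -0.14 and -0.02, with a fitted difference of -0.08 ± 0.23 that was 0.175 without centring. Its interval ran from -0.64 to 0.48. The GDH2 log2 level averaged 0.17 ± 0.0035 in aft1aft2, 0.25 ± 0.08 in aft1 and -0.42 ± 0.08 in wt (SD, n = 2). Both mutants lay above wt in both experiments. Measured as a log2 ratio, GDH1 minus GDH2 was -1.54 and -1.59 in aft1 against wt in experiments 1 and 2, and -1.39 and -1.48 in aft1aft2 against wt. This was the widest gap between any pair of the 5 genes, with a root mean square difference of 0.71 over the 6 strain levels. The closest pair was GDH3 and GLN1, at 0.17.

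GLN1, the glutamine synthetase gene, lay nearest to the typical spot in aft1. Its log2 ratio in aft1 against wt was -0.15 in experiment 1 and 0.18 in experiment 2, or 0.16 and 0.40 without centring. The interval of the fitted change of 0.02 ± 0.24 ran from -0.56 to 0.60. GLN1 in aft1aft2 against wt stood at -0.41 and -0.395, with a fitted change of -0.41 ± 0.24, which without centring was 0.11. Against aft1 the aft1aft2 ratios were -0.26 and -0.59, with a fitted change of -0.42 ± 0.24. None of these passed (limma adjusted p = 0.980, 0.369 and 0.349 in that order). The GLN1 log2 level averaged -0.28 ± 0.07 in aft1aft2, 0.15 ± 0.16 in aft1 and 0.13 ± 0.08 in wt (SD, n = 2). The aft1aft2 levels lay below those of both other strains, while aft1 and wt overlapped.

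**Figure D2:**
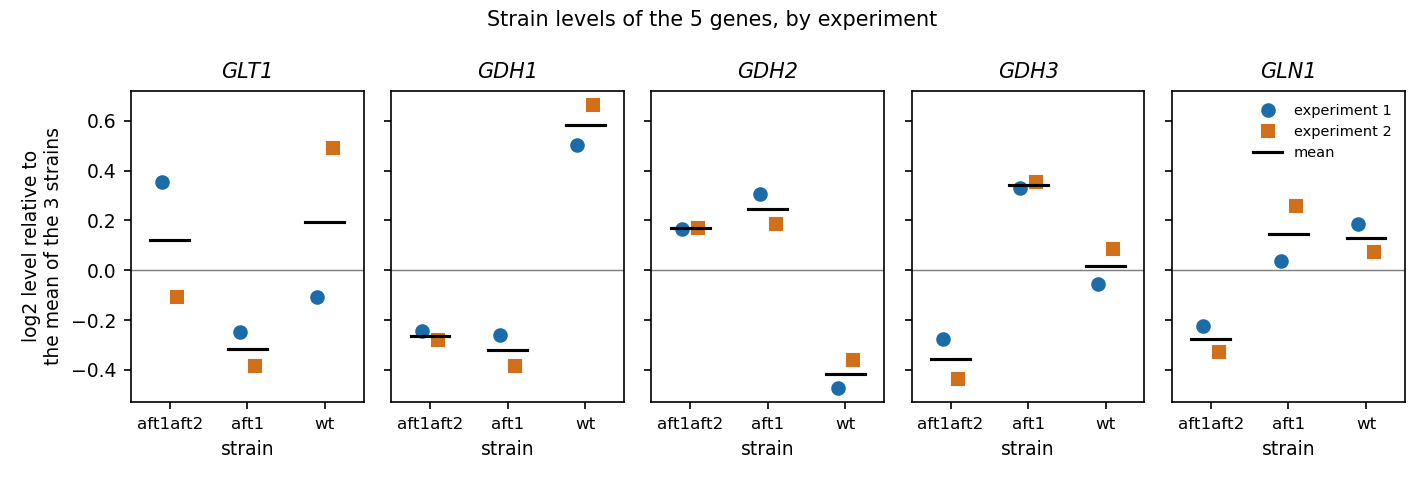
Log2 level of each gene in the 3 strains relative to their mean, with circles for experiment 1, squares for experiment 2 and lines for the mean of both. The mutant levels of GDH1, from -0.38 to -0.24, lie below the wt levels of 0.50 and 0.665, and the mutant levels of GDH2, from 0.17 to 0.31, lie above the wt levels of -0.47 and -0.36.

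The order of strain levels differed from gene to gene. Levels did not overlap between aft1 and wt for 4 of 5 genes, where 55.4% of all spots had such levels. The count was also 4 of 5 for aft1aft2 against wt and 4 of 5 for aft1aft2 against aft1, with 58.1% and 61.5% of all spots. With 2 levels per strain, such separation was common over the whole membrane. Centred ratios had the same sign in both experiments for 4, 4 and 5 of the 5 genes, where 64.9%, 61.1% and 66.6% of all spots did. The exceptions were GLN1 in aft1 against wt and GLT1 in aft1aft2 against wt. Without centring these ratios were 0.16 and 0.40 for GLN1 and 0.86 and 0.03 for GLT1. Signs then turned elsewhere, for GLT1 in aft1 against wt (0.17 and -0.66) and GLN1 in aft1aft2 against wt (-0.01 and 0.23). They also turned for GDH2 between the mutants (-0.05 and 0.40). Over the 6 strain levels GDH1 varied most, with an SD of 0.458 on the log2 scale, and 71.7% of all spots varied less. GLN1 varied least, at 0.230, and 21.7% of all spots varied less. The median change of the 5 genes was 0.02 for aft1 against wt, -0.37 for the double mutant against wt and -0.08 for aft1aft2 against aft1, beside 0.01, 0.02 and 0.03 over all spots. Without centring the medians of the 5 genes were 0.28, 0.14 and 0.175, beside 0.27, 0.54 and 0.28 over all spots. In the double mutant against wt 4 of 5 genes lay below 0, or 1 of 5 without centring.

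**Figure D3:**
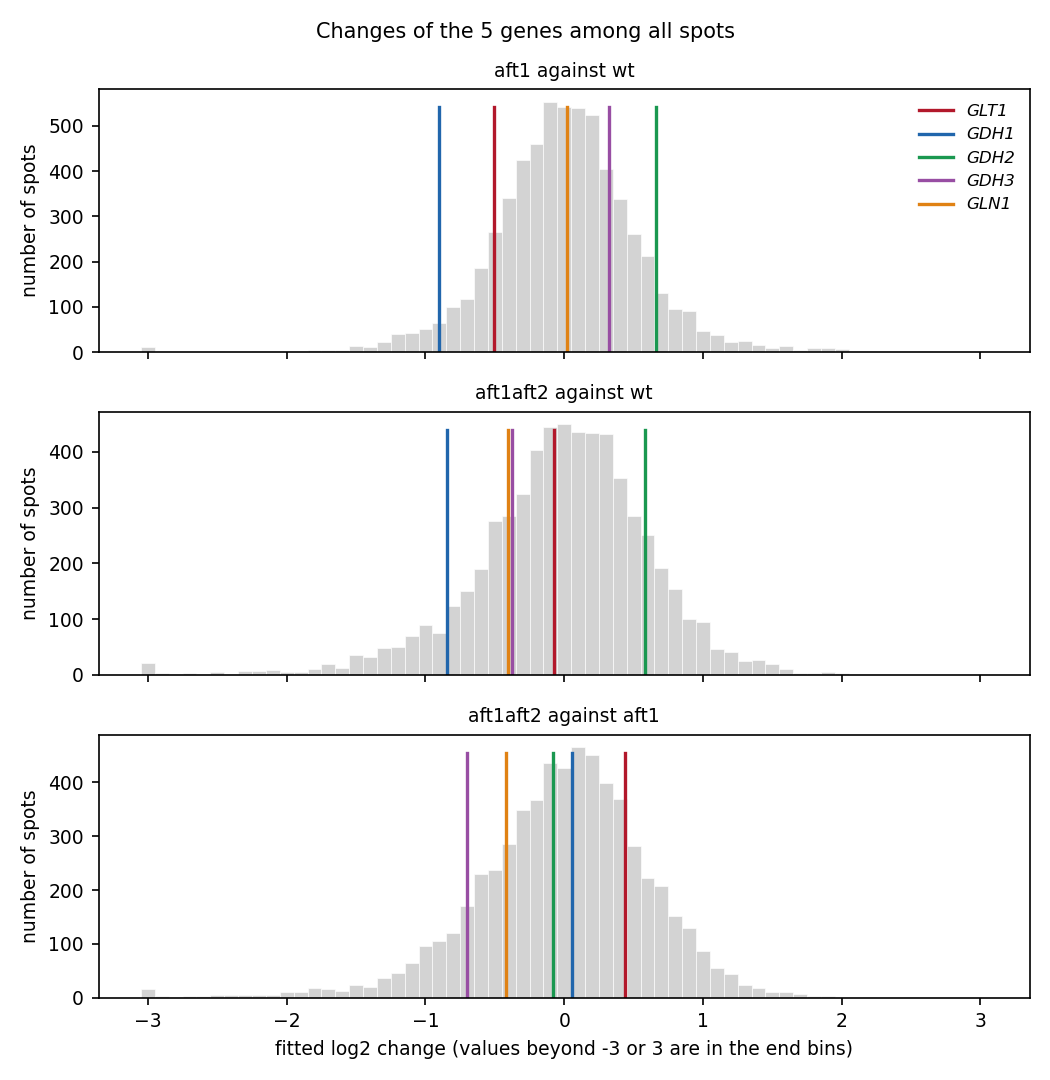
Histograms of the fitted log2 change over all 6084 spots in each comparison, with a vertical line for each of the 5 genes. GDH1 lies in the lower flank against wt, with 4.16% of spots below it in aft1 and 8.47% in aft1aft2, and the other lines there lie nearer the centre. Between the mutants GDH3 lies lowest of the 5, with 11.8% of spots below it.

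The spots of other genes with the most similar pattern were found by the root mean square difference over the 6 strain levels, on the log2 scale. For GLT1 they were PIH1 at 0.036, UBA2 at 0.075 and TRM9 at 0.078. For GDH1 they were SIZ1, RPS17B and IPA1, at 0.070 to 0.072. GDH2 was closest to RRT8 at 0.060, then NMD4 and GPX1 at 0.070 each. GDH3 was closest to RBK1, ABP140 and KRE33, at 0.052 to 0.056, and GLN1 to FUN12, PLB3 and YET3, at 0.045 to 0.053. No test goes with these distances.

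Genes around the pathway were read from 9 lists, chosen with earlier results of these data known, which held 85 spots beside those of the 5 genes. Of these, 1 spot passed limma's test for aft1 against wt, 4 for the double mutant against wt and 3 for aft1aft2 against aft1, beside 1.46%, 4.44% and 2.83% of all spots. These shares of the 85 spots lie near the background, and nothing is read from them.

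IDH2, which encodes a subunit of the mitochondrial isocitrate dehydrogenase that makes 2-oxoglutarate, stood at 2.05 ± 0.24 in aft1 against wt (log2, SE, n = 2, limma adjusted p = 0.0252) and at 2.12 ± 0.24 in aft1aft2 against wt (limma adjusted p = 0.0122). IDH1, the gene of the other subunit, was 2.25 ± 0.27 in aft1aft2 against wt (limma adjusted p = 0.0148). For aft1 against wt IDH1 was 1.19 ± 0.27 and did not pass (limma adjusted p = 0.104). The IDH2 call in aft1 was lost without wt replicate 2 and without either aft1 replicate (adjusted p = 0.0659 to 0.32). Of the 12 spots for 2-oxoglutarate supply and use, 1 rose and 0 fell in aft1 against wt. The double mutant against wt had 2 that rose and 0 that fell. By limma 0 passed in aft1aft2 against aft1. At an unadjusted limma p under 0.05 there were 4 spots above and 1 below 0 in aft1 against wt, 6 and 2 in the double mutant against wt, and 3 and 2 between the mutants, where 15.4%, 21.4% and 22.6% of all spots reached that limit. The list medians were 0.35, 0.68 and 0.14 in these 3 comparisons, or 0.62, 1.20 and 0.39 without centring.

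Enzymes that take the amino group from glutamate were read from the aminotransferase list of 10 spots. In aft1 against wt 0 passed limma's test and the median was 0.47, or 0.73 without centring. With aft1aft2 set against wt, 1 fell and the median was -0.35, or 0.17 without centring. In aft1aft2 against aft1 2 fell, the median was -0.76, or -0.51 without centring, and all 10 lay below 0, or 9 of 10 without centring. At an unadjusted limma p under 0.05 there were 3 above and 0 below 0 for aft1 against wt, 1 and 2 for the double mutant against wt, and 0 and 5 between the mutants, beside 15.4%, 21.4% and 22.6% of all spots. Among all spots that passed by adjusted p, lower was the common direction between the mutants. With centring it also was in the double mutant against wt. The lower spots were 226 of 270 in the double mutant against wt and 158 of 172 between the mutants, or 36 of 72 and 50 of 52 without centring. In aft1 against wt they were 38 of 89, or 14 of 58 without centring. ARO8, the aromatic aminotransferase gene, had log2 ratios of -1.31 and -1.43 in aft1aft2 against aft1, with a fitted change of -1.37 ± 0.23 (limma adjusted p = 0.0406), and fell to -1.65 ± 0.23 in aft1aft2 against wt (limma adjusted p = 0.0238). SER1, the phosphoserine aminotransferase gene of serine synthesis, had ratios of -1.48 and -2.12 in aft1aft2 against aft1, with a fitted change of -1.80 ± 0.29 (limma adjusted p = 0.0348). Against wt SER1 lay on both sides of 0, at 0.88 ± 0.29 in aft1 and -0.92 ± 0.29 in aft1aft2, or 1.14 and -0.405 without centring. Neither passed (limma adjusted p = 0.219 and 0.145 with centring).

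The ARO8 and SER1 calls did not hold in each setting. Without centring, adjusted p was 0.123 for ARO8 and 0.0917 for SER1 in aft1aft2 against aft1, and 0.0702 for ARO8 when aft1aft2 was set against wt. In aft1aft2 against aft1 both calls were lost without either aft1 replicate and without aft1aft2 replicate 2 (adjusted p from 0.0833 to 0.522 for ARO8 and from 0.086 to 0.451 for SER1). The SER1 change was -2.17 without aft1 replicate 1 and -1.42 without aft1 replicate 2. The ARO8 call in aft1aft2 against wt was lost without any 1 of the hybridisations other than aft1aft2 replicate 1 (adjusted p from 0.0548 to 0.0691).

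GAP1, the general amino acid permease gene and a classical target of nitrogen catabolite repression, had log2 ratios of -1.61 and -1.195 in aft1aft2 against wt. The fitted change was -1.41 ± 0.24 (SE, n = 2, limma adjusted p = 0.0358), and GAP1 was -1.54 ± 0.24 in aft1aft2 against aft1 (limma adjusted p = 0.033). It was the only spot to pass among the 19 of repressed nitrogen genes and among the 6 of glutamate and glutamine transport, in which it is also listed. The medians of the repressed genes were 0.12 for aft1 against wt, -0.11 for the double mutant against wt and -0.17 for aft1aft2 against aft1, or 0.39, 0.41 and 0.08 without centring. Without centring the GAP1 change was -0.89 in aft1aft2 against wt and -1.29 in aft1aft2 against aft1, and neither passed (adjusted p = 0.0865 and 0.114). The call against wt was lost without any 1 of the hybridisations other than aft1aft2 replicate 1 (adjusted p from 0.064 to 0.126). The call against aft1 was lost without either aft1 replicate and without aft1aft2 replicate 2 (adjusted p from 0.0585 to 0.45). Fitted with each comparison alone, neither GAP1 call passed (adjusted p = 0.0619 and 0.0511), nor did ARO8 in aft1aft2 against aft1 (adjusted p = 0.0703).

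No spot passed in the other 5 lists. The list for glutamate breakdown and the GABA shunt held 9 spots. It also covered a regulator and the synthesis of proline, glutathione and arginine from glutamate, so it is not a list of breakdown genes alone. Its median was -0.63 in aft1aft2 against aft1, or -0.38 without centring, and 7 of the 9 spots lay below 0. At an unadjusted limma p under 0.05 there were 5 of them, from the GABA shunt and from the synthesis genes, all below 0, where 22.6% of all spots reached that limit. Against wt 1 did in aft1, above 0, and 2 in the double mutant, below 0, beside 15.4% and 21.4% of all spots. PRO2, of proline synthesis from glutamate, came nearest, at -1.24 ± 0.24 (limma adjusted p = 0.0567). The 12 glutamine amidotransferase spots had a median of -0.51 between the mutants, or -0.26 without centring, with URA2 of pyrimidine synthesis at -1.16 ± 0.24 (limma adjusted p = 0.0664). Their unadjusted limma p was under 0.05 for 3 of them there, all below 0, for 2 in aft1 against wt, both above 0, and for 0 in the double mutant against wt. The shares of all spots were 22.6%, 15.4% and 21.4% in that order. The 5 regulators of nitrogen catabolite repression had medians between -0.07 and 0.17 in the 3 comparisons (0.19 to 0.515 without centring) and 0 at an unadjusted limma p under 0.05. GAT1, a GATA activator among them, was -0.68 ± 0.32 in aft1aft2 against aft1 (limma adjusted p = 0.271), made of -0.15 in experiment 1 and -1.21 in experiment 2. Without aft1aft2 replicate 1 the GAT1 change was -1.14, without aft1aft2 replicate 2 it was -0.21, and without aft1 replicates 1 and 2 in turn it was -1.003 and -0.35. Without centring it was -0.42. The 11 other regulators reported for these genes had medians of 0.06, 0.045 and 0.12 in the 3 comparisons, or 0.32, 0.56 and 0.37 without centring. At an unadjusted limma p under 0.05 there were 0 in aft1 against wt and 2 above and 1 below 0 in the double mutant against wt. Between the mutants there were 2 above and 0 below. The shares of all spots were 15.4%, 21.4% and 22.6%. HAP5 had the value furthest from 0 among them, -1.36 ± 0.70 in aft1 against wt, made of -2.94 in experiment 1 and 0.22 in experiment 2. Without wt replicate 1 it was 0.04 and without wt replicate 2 -2.76 (adjusted p = 0.981 and 0.0145).

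GLT1 was last set beside the other iron-sulfur enzymes of amino acid synthesis. LEU1, the isopropylmalate isomerase gene of leucine synthesis, stood at 1.23 ± 0.31 in aft1 against wt and 1.42 ± 0.31 in aft1aft2 against wt (SE, n = 2, limma adjusted p = 0.129 and 0.0624). LYS4, the homoaconitase gene of lysine synthesis, was -0.53 ± 0.27 and -0.22 ± 0.27 in the same comparisons, the second of them 0.30 without centring. MET5, of the sulfite reductase, was -0.60 ± 0.30 and 0.50 ± 0.30, and ILV3, the dihydroxyacid dehydratase gene, 0.36 ± 0.25 and 0.24 ± 0.25. In aft1aft2 against aft1 MET5 stood at 1.10 ± 0.30, from ratios of 0.72 and 1.47 (limma adjusted p = 0.113, unadjusted p = 0.00953), or 1.35 without centring. LEU1, LYS4 and ILV3 were 0.18 ± 0.31, 0.32 ± 0.27 and -0.13 ± 0.25 there, or 0.435, 0.57 and 0.13 without centring. None of these passed. With GLT1 counted in, 3 of 5 genes lay below 0 in aft1 against wt with or without centring. The count was 2 of 5 for the double mutant against wt and 1 of 5 between the mutants, and 0 of 5 in both without centring. Their median in aft1 against wt was -0.51, which is the GLT1 value itself. It was 0.24 for the double mutant against wt and 0.32 for aft1aft2 against aft1. Without centring the 3 medians were -0.245, 0.75 and 0.57.

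**Figure D4:**
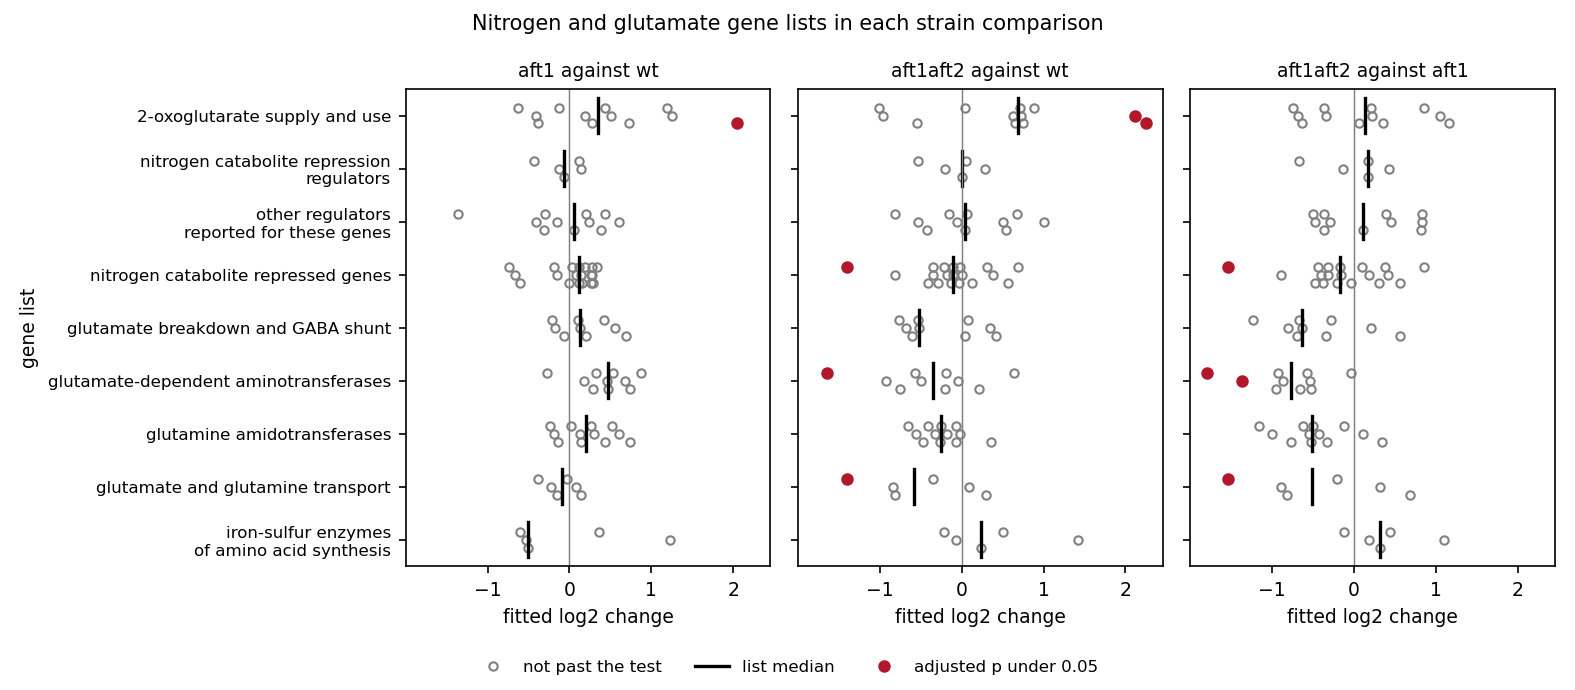
Fitted log2 change of each spot in 9 gene lists for the 3 comparisons, with open circles for spots that did not pass, filled circles for an adjusted p under 0.05 and bars for the list median. All 10 aminotransferase spots lie below 0 in aft1aft2 against aft1, beside a median of 0.03 over all spots. Without centring 9 of 10 do, beside a median of 0.28 over all spots. Of all spots that passed in that comparison, 158 of 172 were lower.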

How the data were processed

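For each sample the authors deposited a log ratio at every spot, read here as log2. Per the labels, 5 µg of total RNA was reverse-transcribed and hybridised to GeneFilters membranes, exposed for 3 days and quantified with PATHWAYS 3. The normalisation of membranes is not given in the sources used here, and the table gives no intensities, so no filter on low values could be set. The deposited column medians, turned to mutant minus comparison strain, lay between 0.09 and 0.625. Columns were centred, least squares gave a level per strain and experiment, and a model of strain plus experiment was fitted over all spots with limma 3.58.1 under R 4.3.3 (2 residual degrees of freedom, two-sided tests). The experiment term was kept because each ratio is formed within an experiment. The fit was run on simulated independent values with changes in aft1 alone, as a check for bias in the estimates. Its power for changes of the size seen here is not given. Symbols were updated through the R64 gene table, which matched 5523 of 5523 named spots. All per-sample columns were used. Members and lists were chosen with earlier results of these data known. Named are the 5 genes, the 3 nearest spots to each, the iron-sulfur enzymes, and from each list the called spots (at most 4 per comparison) or else the spot furthest from 0. Alternatives were other scalings, other designs, robust moderation, and leaving out hybridisations or experiments.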

Additional observations from a re-analysis of the deposited data

How the results depend on the processing

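With centred columns and the experiment term, 0 of the 5 genes passed limma's test in each comparison, and this held under all alternatives tested except the one with no replicate block. Experiment numbers pair the hybridisations because ratios were formed within an experiment, so the block was in the reported fit. Strain levels sum to 0 in each experiment, so leaving the block out adds a residual degree of freedom without adding data. That fit passed 2, 2 and 1 of the 5 genes in aft1 against wt, the double mutant against wt and aft1aft2 against aft1. These were GDH1 at -0.91 and -0.85 and GDH2 at 0.66 and 0.585 in aft1 and aft1aft2 against wt, and GDH3 at -0.70 between the mutants, with adjusted p from 0.017 to 0.0402. It passed 590, 940 and 950 spots in all, beside 89, 270 and 172 with the block, and 5, 14 and 15 spots of the pathway lists, beside 1, 4 and 3.

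Without centring, signs turned in aft1aft2 against wt for GLT1 (0.445), GDH3 (0.14) and GLN1 (0.11), and between the mutants for GDH2 (0.175). That setting passed 58, 72 and 52 spots in all, with 2 list spots in aft1aft2 against wt and 0 between the mutants. In aft1 against wt, scaled columns passed 217 spots and quantile normalised ones 213, with 2 list spots in each. Each comparison fitted alone passed 44, 157 and 112 spots, with 1 list spot between the mutants.

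With an experiment or hybridisation left out, GLT1 ranged from -0.595 to 0.46 in aft1aft2 against wt and GLN1 from -0.15 to 0.18 in aft1 against wt. GDH1 ranged from -1.05 to -0.76 in aft1 against wt and from -0.97 to -0.73 in aft1aft2 against wt. The GDH2 ranges there were 0.54 to 0.78 and 0.50 to 0.67. Between the mutants GDH1 ranged from -0.033 to 0.15 and GDH2 from -0.17 to 0.0125. HAP5 in aft1 against wt ranged from -2.76 to 0.044 with a hybridisation left out, and was -2.94 and 0.22 in experiments 1 and 2. With a hybridisation left out, the spots that passed ranged from 4 (without aft1 replicate 2) to 233 (without either aft1aft2 replicate) in aft1 against wt. They ranged from 75 (without either aft1 replicate) to 559 (without aft1aft2 replicate 1) in aft1aft2 against wt, and from 13 (without aft1 replicate 2) to 503 (without aft1aft2 replicate 1) between the mutants. Of the spots of the pathway lists 0 to 2, 2 to 6 and 0 to 7 passed. In these fits the strain left with 1 hybridisation is assumed to vary like the others. Leaving out an experiment leaves no test. The cause of these shifts was not tested. No filter on low values was run, since the table holds no intensities, and signal over background is unknown.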
